A study of Mus musculus with 8 samples.

Results

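The SOX transcription factors bind DNA through a shared HMG box and are sorted into groups by sequence. Described here are 9 genes of 3 groups, of 21646 coding genes on chromosomes 1 to 19 and X: *Sox1*, *Sox2* and *Sox21* of SOXB, *Sox4*, *Sox11* and *Sox12* of SOXC, and *Sox5*, *Sox6* and *Sox13* of SOXD. They were chosen by group membership, although *Sox3* and *Sox14*, also of SOXB, are described only with the other SOX genes. Each of the 9 was measured at its transcription start site (TSS) with 1 kb on each side, over its gene body and over the 20 kb on each side of the gene (flanks). SOX9 itself belongs to SOXE. In the nervous system *Sox1* and *Sox2* are known as activators that keep neural progenitors undifferentiated, *Sox21* as a related repressor, and *Sox4* and *Sox11* as factors of young neurons, while *Sox5* and *Sox6* lack an activation domain of their own, modulate oligodendrocyte development and work beside SOX9 in cartilage.

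SOX9 CUT&Tag, in which an antibody to SOX9 directs a transposase to cut the DNA nearby, was run on sorted nuclei of spinal cord segments from adult WT C57BL/6 mice. The cords were uninjured or taken 1 day after a contusion (1 d.p.i.). Each condition was sampled once from males (M) and once from females (F). Every sample gave a SOX9 library and a secondary-only control, in which the SOX9 antibody was left out, so that there were 4 groups of 2 libraries. The methods state that 2 to 4 animals were pooled for each condition in sequencing experiments, with equal numbers of both sexes, and the p-values measure the spread between these samples only.

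Depth differed between libraries. Counted on chromosomes 1 to 19 and X, SOX9 fragments numbered 1869806 for M and 7209462 for F of the uninjured cords, and 2513522 for M and 2381412 for F of the injured ones. The 4 controls held 22707, 46637, 52684 and 10892 fragments (uninjured M, uninjured F, injured M, injured F). Coverage of the Y chromosome over that of the autosomes was 0.310 and 0.173 in the M and 0.0269 and 0.0392 in the F libraries of SOX9 (uninjured, then injured). In the controls it was 0.0553 and 0.0735 for M against 0.0600 and 0.0354 for F, which did not separate the sexes. Coverage of the X chromosome over that of the autosomes was 0.347 for M and 0.276 for F in the uninjured SOX9 libraries and 0.283 for M and 0.386 for F in the injured ones, so that it did not separate the sexes either. All values below are relative coverage, the mean coverage per base of a window over the mean of its library, so that 1 is the library mean.

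Coverage at the TSS varied widely within each group. *Sox12* had the highest mean of the 4 SOX9 libraries (15.6), followed by *Sox2* (12.3), *Sox11* (7.22), *Sox4* (6.075), *Sox1* (4.31), *Sox13* (4.18), *Sox21* (3.63), *Sox5* (3.32) and *Sox6* (0.443). Neighbours in this order overlapped in their libraries with 1 exception, as every value of *Sox6* lay below every value of the other genes. *Sox12* and *Sox2* stood at percentiles 91.0 and 85.7 of all coding genes, and 6 of the 9 genes lay above the median of all coding genes. That count depended on the library and the window. Between libraries *Sox13* ranged from percentile 39.1 to 75.55, *Sox1* from 40.5 to 71.6 and *Sox5* from 35.2 to 72.2. With 2 kb on each side of the TSS *Sox1* stood at 46.4 and *Sox12* at 96.3. At the 5′ end of the gene record *Sox5* stood at 50.1 in place of 46.95, and *Sox6* at 37.75 in place of 15.2. Positions were also read among starts of like CpG content. Against the 7582 genes whose TSS window had a CpG content of at least 0.6 of the expected, *Sox12* and *Sox2* stood at percentiles 81.5 and 71.2, while *Sox1*, *Sox21*, *Sox4*, *Sox11* and *Sox13* lay below the median of that class. *Sox5* and *Sox6*, whose starts are CpG-poor, stood at percentiles 64.65 and 23.2 of the other 14064 genes.

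**Figure D1:**
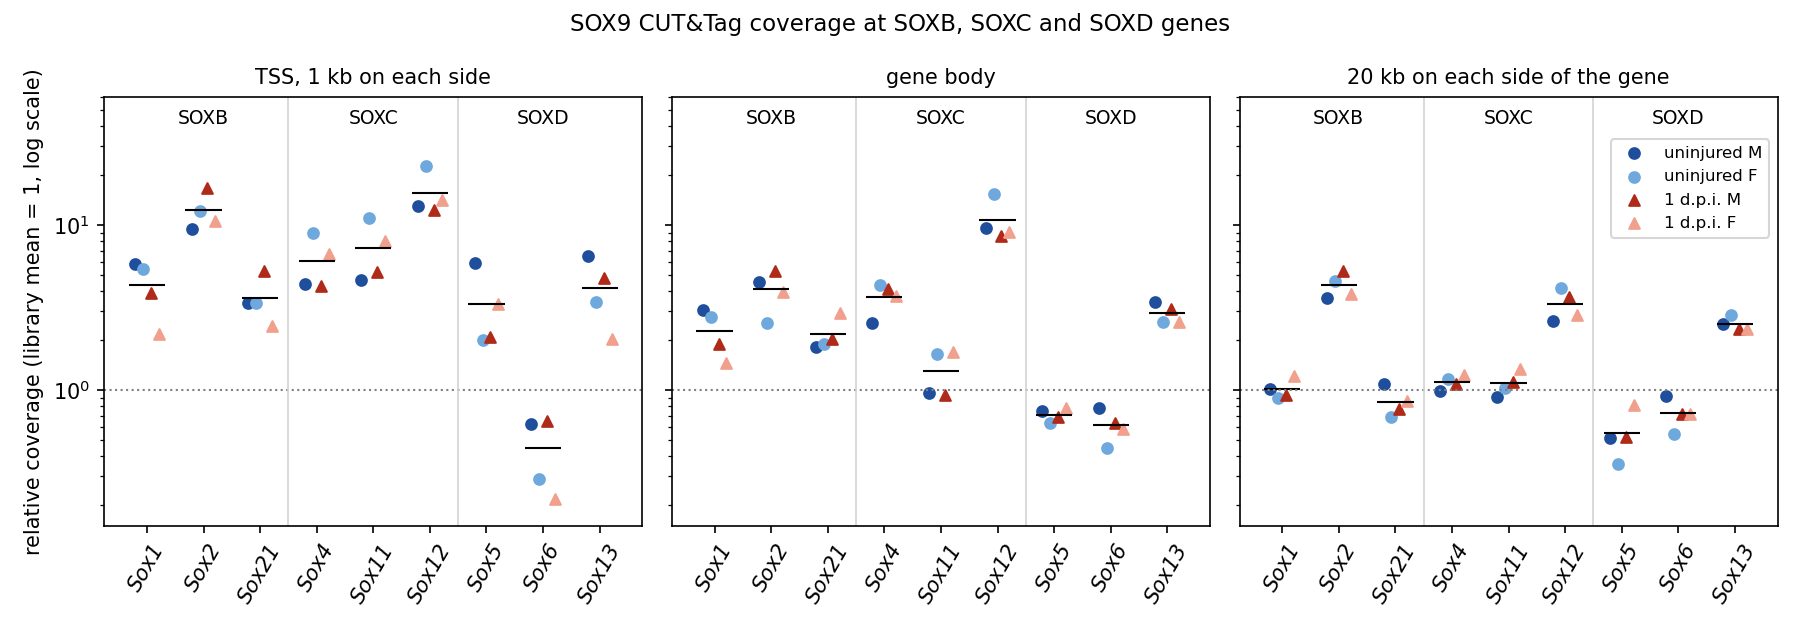
Relative coverage (log axis, 1 is the library mean) of the 9 genes at the TSS, over the gene body and in the flanks, with 1 point for each of the 4 SOX9 libraries and a line at their mean. *Sox12* and *Sox2* are the highest at the TSS (means of 15.6 and 12.3), *Sox6* lies below 1 in every library, and in the flanks *Sox2*, *Sox12* and *Sox13* lie above 2 in every library while the means of the other 6 genes lie between 0.549 and 1.11.

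In SOXB, *Sox2* had TSS coverage of 9.49 (M) and 12.2 (F) in uninjured cord and of 16.8 (M) and 10.6 (F) in injured cord, from 130 fragments in all. The conditions overlapped. *Sox1* had 5.76 (M) and 5.42 (F) in uninjured cord and 3.86 (M) and 2.197 (F) in injured cord, from 63 fragments, so both 1 d.p.i. libraries lay below both uninjured ones. *Sox21* had 3.391 (M) and 3.388 (F) in uninjured cord and 5.275 (M) and 2.46 (F) in injured cord, from 34 fragments. Both of its M libraries thus lay above both F libraries, though the uninjured ones were nearly equal.

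In SOXC, *Sox12* had 13.1 (M) and 22.9 (F) in uninjured cord and 12.3 (M) and 14.1 (F) in injured cord, from 201 fragments. *Sox11* had 4.62 (M) and 11.03 (F) uninjured, and 5.19 (M) and 8.03 (F) in injured cord. *Sox4* had 4.37 (M) and 8.97 (F) uninjured, and 4.285 (M) and 6.67 (F) in injured cord. In all 3 genes both F libraries lay above both M libraries, as they did in 21.7% of coding genes, and the conditions overlapped.

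In SOXD, *Sox13* had 6.46 (M) and 3.42 (F) in uninjured cord and 4.775 (M) and 2.05 (F) in injured cord. Both M libraries lay above both F libraries, as they did in *Sox21* and in 6.42% of coding genes. At another annotated start of *Sox13* (chr1:133393218) the mean was 2.08 against 4.18, with 2.54 and 0.208 for M and 1.85 and 3.71 for F (uninjured, then injured), so that the order of the sexes depended on the start. *Sox5* and *Sox6* are long genes with several annotated starts. At the principal start of *Sox5* (chr6:144209480) the uninjured M library (5.86) stood above the other 3 (2.005, 2.098 and 3.31), whereas at the 5′ end of the gene record (chr6:144781977) the same library was the lowest, with 0.589 against 3.55 (uninjured F), 3.365 (1 d.p.i. M) and 7.11 (1 d.p.i. F). *Sox6* had 0.619, 0.288, 0.646 and 0.218 at its principal start (chr7:115995086), from 7 fragments, and did not pass the filter on low values. Another of its annotated coding starts, at chr7:116031047, had a mean of 3.01, with 4.47 (uninjured M), 3.23 (uninjured F), 2.40 (1 d.p.i. M) and 1.96 (1 d.p.i. F). Its other starts ranged from a mean of 0.125 (chr7:115859852) to 2.73 (chr7:115824710), so that coverage at *Sox6* depended on the start taken.

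Around the genes, *Sox2*, *Sox12* and *Sox13* stood apart. Mean flank coverage was 4.305 at *Sox2* (percentile 89.1 of all coding genes), 3.32 at *Sox12* (81.9) and 2.515 at *Sox13* (72.3), and it was between 0.549 and 1.11 at the other 6 genes. Over the gene body *Sox12* was the highest (10.7, percentile 97.8), followed by *Sox2* (4.07), *Sox4* (3.68), *Sox13* (2.92), *Sox1* (2.29), *Sox21* (2.17) and *Sox11* (1.31), and the long genes *Sox5* (0.709) and *Sox6* (0.610) lay below the library mean in every library. The flanks hold other genes, whose part in these values was not tested. The starts of the coding genes *Nrsn2*, *Zcchc3* and *6820408C15Rik* lie in the flanks of *Sox12*, that of *Etnk2* in those of *Sox13* and that of *1110004F10Rik* in those of *Sox6*, while no other coding gene starts in the flanks of *Sox2*, *Sox1*, *Sox21*, *Sox4*, *Sox11* or *Sox5*.

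Other members of the family set the scale of these values. The SOXE genes *Sox10* and *Sox8* had mean TSS coverage of 24.8 and 19.2 (percentiles 96.9 and 94.2), above the mean of every gene of the 3 groups, while *Sox9* itself had 5.405. *Sox15* had 6.98, *Sox18* 4.32, *Sox30* 1.745 and *Sox7* 1.67. *Sox3* and *Sox14*, the other SOXB genes, had 0.825 and 0.702, and *Sox17* had 0.526. SOXB thus spanned high and low values, with *Sox2* at the upper and *Sox14* at the lower end.

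Genes outside the family with the most similar TSS coverage in the 4 SOX9 libraries were *Osbpl8*, *Amd1* and *Cat* for *Sox2* (Euclidean distances on the log2 scale of 0.171, 0.173 and 0.178), *B4gat1*, *Fzd4* and *Stoml2* for *Sox12* (0.0701, 0.135 and 0.149), and *Magel2*, *Dgkh* and *Pex11g* for *Sox13* (0.256, 0.313 and 0.326). Coding genes outside the SOX family thus also had values like those of *Sox2* and *Sox12*. They were picked as the nearest in these same values, so that their closeness follows from the choice.

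Tiles of 1 kb placed this coverage more closely. In the 9 loci (gene body and flanks) 11 of 1953 tiles (0.563%) reached 5 times the library mean in each of the 4 SOX9 libraries, against 20660 of the 1418297 tiles in the loci of all coding genes (1.46%). The long loci of *Sox5* and *Sox6* made up 1602 of the 1953 tiles with 1 such tile (0.0624%), and the other 7 loci, set apart after the values were seen, held 10 of 351 (2.85%). *Sox2* held 5 of its 42 tiles (11.9%), *Sox12* 4 of its 44 (9.09%), *Sox4* 1 and *Sox5* 1. *Sox1*, *Sox21*, *Sox11*, *Sox6* and *Sox13* held 0. With tiles of 0.5 kb *Sox13* held 5, *Sox11* 2 and *Sox1* 1, and at a threshold of 3 *Sox13* held 9, so that the 0 of *Sox13* depended on tile size and threshold. The count for the 9 loci was 24 without the uninjured M library (1.23%, against 2.105% for the loci of all coding genes, 29851 tiles) and 12 to 15 without any other. Without the uninjured M library *Sox12* held 10, *Sox2* 6 and *Sox4* 3, so that the order of *Sox2* and *Sox12* depended on this library. Without the 1 d.p.i. F library *Sox2* held 8.

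**Figure D2:**
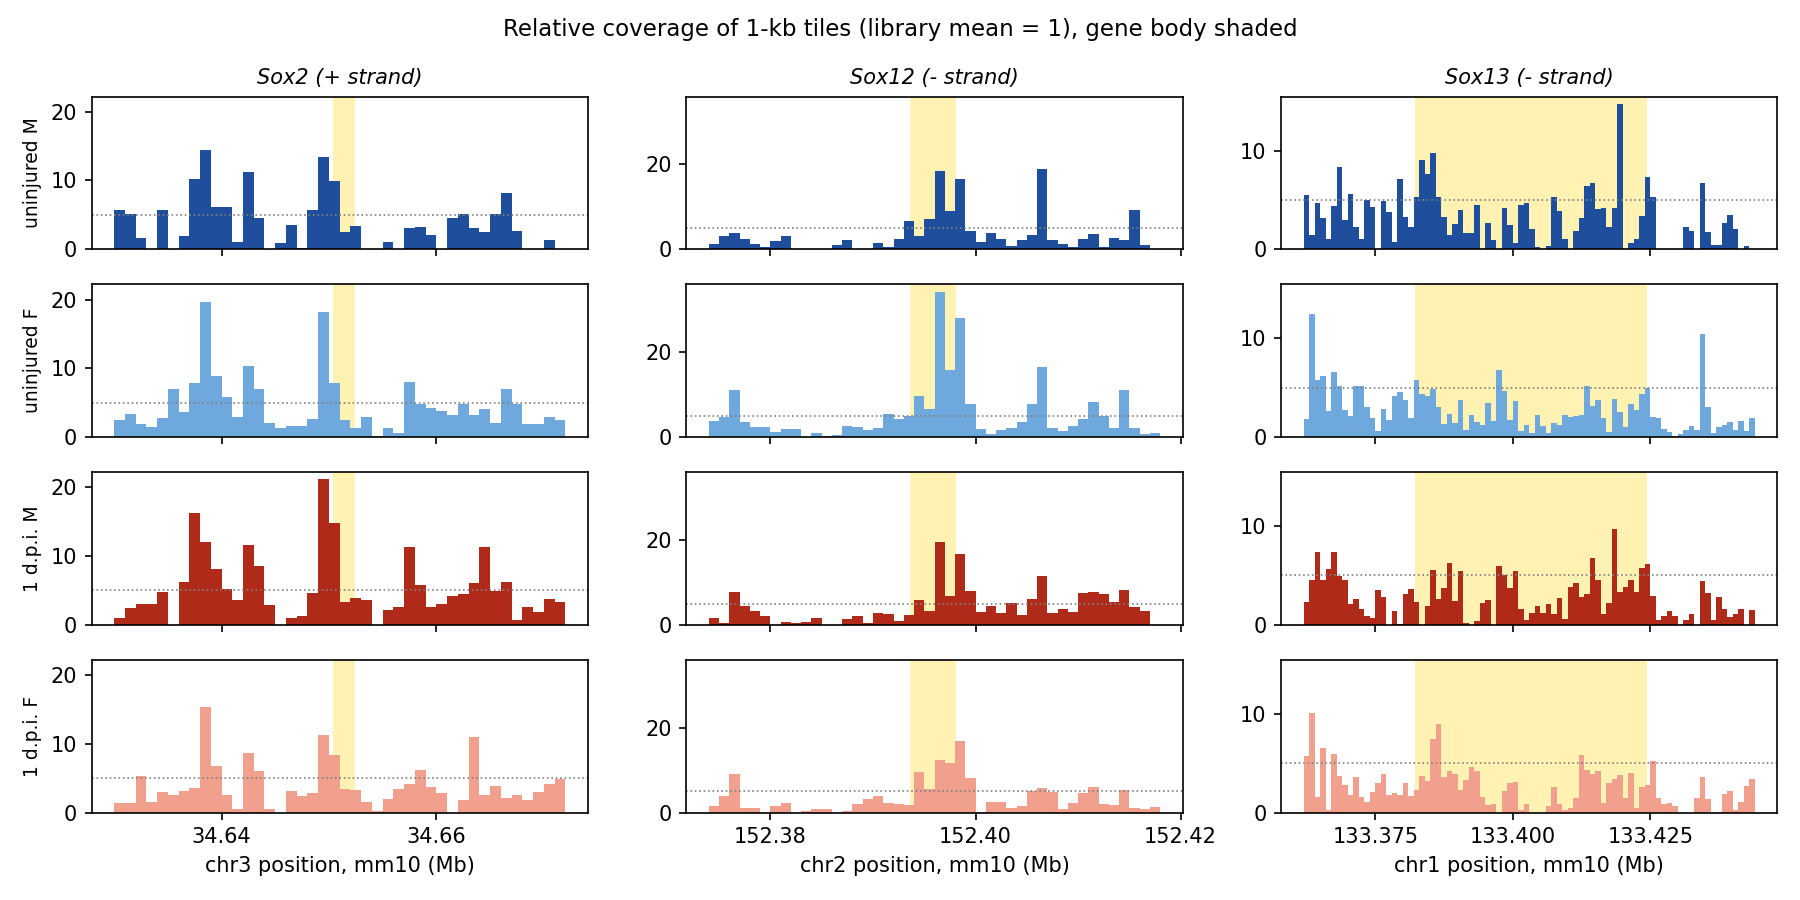
Relative coverage of 1-kb tiles (vertical axis, library mean 1) along the loci of *Sox2*, *Sox12* and *Sox13* (horizontal axis, mm10 position in Mb) in the 4 SOX9 libraries, with the gene body shaded and a dotted line at 5. The same places of *Sox2* and *Sox12* reach the line in every library, whereas no tile of *Sox13* reaches it in all 4.

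The 5 tiles of *Sox2* formed 3 places, all upstream of or at the start of *Sox2* (ENSMUSG00000074637.7, chr3:34650405-34652461, strand +, mm10) and inside the long noncoding gene *Sox2ot*, which overlaps it on the same strand. The place farthest upstream covered 2 tiles (chr3:34638001-34640000). Its higher tile had 14.4 (M) and 19.7 (F) in uninjured cord and 11.99 (M) and 15.4 (F) in injured cord, with 12, 65, 17 and 13 fragments. The tile at chr3:34642001-34643000 had 11.2, 10.4, 11.7 and 8.64 in the same order of libraries. The tile next to the start (chr3:34649001-34650000) had the highest mean of the locus (16 against 15.4 for the tile farther upstream), with 13.4, 18.1, 21.2 and 11.3. It was the higher of the pair in the 1 d.p.i. M library, and the upstream tile was the higher in the other 3. The conditions overlapped in each of the 3 tiles whose values are given.

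In *Sox12* (ENSMUSG00000051817.8, chr2:152393611-152398063, strand -, mm10) 3 of the 4 tiles adjoined each other across the gene and its start, and the highest of them lay on an exon (chr2:152396001-152397000), with 18.4 (M) and 34.3 (F) in uninjured cord and 19.5 (M) and 12.45 (F) in injured cord. The remaining tile lay upstream (chr2:152406001-152407000), outside any annotated gene. It had 18.8 (M) and 16.4 (F) in uninjured cord and 11.55 (M) and 5.80 (F) in injured cord, from 15, 56, 15 and 9 fragments, and limma gave it no unadjusted p under 0.05. The tile of *Sox4* (chr13:28953001-28954000) lay at its start, with 6.76, 13.05, 7.62 and 11.2 (uninjured M, uninjured F, 1 d.p.i. M, 1 d.p.i. F).

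The tile of *Sox5* (chr6:144668001-144669000) lay in an intron, with 6.22 (M) and 10.4 (F) in uninjured cord and 20.6 (M) and 13.8 (F) in injured cord, from 3, 23, 15 and 11 fragments. The bases around its summit are a tandem repeat, as 94.2% of them equal the base 64 positions away. The sequence is shown for this repeat, whose part in the coverage was not tested. It spans chr6:144668092-144668292, strand +, mm10.
Sox5 intron: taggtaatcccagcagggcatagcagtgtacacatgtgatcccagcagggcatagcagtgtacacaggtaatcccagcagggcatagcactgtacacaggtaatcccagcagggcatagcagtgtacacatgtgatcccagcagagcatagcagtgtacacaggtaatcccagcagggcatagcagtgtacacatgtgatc

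SOX factors bind short sequences such as AACAAT, the related ACAAAG and also ACAATG. Within 100 bp of the coverage summit of the highest tile, 1 of the 9 loci, *Sox2*, held any of the 3 motifs (ACAAAG), and no locus held an inverted pair of AACAAT. In the same windows of 15216 loci of coding genes 21.02% held a motif, and in windows of equal length at the starts of 21646 coding genes 17.8% did. The summits of all 11 tiles named above were then read in the same way, a listing chosen after their values were seen, and 4 held a motif: 3 of *Sox2* and 1 on an exon of *Sox12*.

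The summit of the upstream place of *Sox2* lay 12.2 kb before the start and held an AACAAT that overlaps with an ACAATG. The window, chr3:34638077-34638277, strand +, mm10, touches an exon of *Sox2ot*, and its sequence is shown for the position of the motifs.
Sox2 upstream 1: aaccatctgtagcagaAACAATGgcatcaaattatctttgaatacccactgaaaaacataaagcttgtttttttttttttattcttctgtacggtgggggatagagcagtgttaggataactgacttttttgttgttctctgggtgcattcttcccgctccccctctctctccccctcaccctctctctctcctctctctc

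The summit 7.68 kb before the start of *Sox2* held ACAAAG on the opposite strand, near the end of the window. The sequence is shown for the position of the motif, in chr3:34642627-34642827, strand +, mm10, which touches no exon.
Sox2 upstream 2: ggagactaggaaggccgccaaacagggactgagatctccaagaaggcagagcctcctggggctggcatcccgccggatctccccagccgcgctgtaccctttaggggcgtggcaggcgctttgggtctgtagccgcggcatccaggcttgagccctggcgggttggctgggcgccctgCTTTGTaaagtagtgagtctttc

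The summit of the tile next to the start of *Sox2* lay 0.562 kb before it and held ACAAAG. The sequence is shown for the position of the motif, in chr3:34649743-34649943, strand +, mm10, which touches no exon.
Sox2 start: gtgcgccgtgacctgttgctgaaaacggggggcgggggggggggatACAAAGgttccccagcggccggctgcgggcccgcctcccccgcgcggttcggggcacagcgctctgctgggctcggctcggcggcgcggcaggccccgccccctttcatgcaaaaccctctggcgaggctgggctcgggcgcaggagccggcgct

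The upstream tile of *Sox12* had its summit 8.27 kb before the start and held none of the 3 motifs. Its sequence is shown as that of a high tile outside any gene, in chr2:152406232-152406432, strand +, mm10.
Sox12 upstream: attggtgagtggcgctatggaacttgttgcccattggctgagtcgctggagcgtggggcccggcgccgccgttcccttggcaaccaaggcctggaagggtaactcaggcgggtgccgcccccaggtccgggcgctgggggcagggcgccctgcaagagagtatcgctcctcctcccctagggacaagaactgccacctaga

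The comparison of injured (1 d.p.i.) with uninjured cord asked where SOX9 signal differed 1 day after the contusion. It was made with limma on 2 libraries against 2, and an exact two-sided permutation test on such groups cannot go below p = 0.33. At the 9 genes no Benjamini-Hochberg adjusted p was under 0.05 in any window. The smallest was 0.9997, and 1 of 26 changes had an unadjusted p under 0.05. That change was *Sox1* over the gene body, with 3.04 (M) and 2.77 (F) in uninjured cord and 1.89 (M) and 1.47 (F) in injured cord, from 70 fragments (log2 change -0.65, SE 0.19, limma p 0.0170, adjusted p 0.9999). It was lower after injury in both sexes. At the TSS *Sox1* had a log2 change of -0.83 (SE 0.67, limma p 0.216, adjusted p 1), and in the flanks it had 0.11 (SE 0.20, p 0.578, adjusted p 0.9997).

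The same fit was made over all coding genes. Of 18050 genes tested at the TSS 2 passed (0.0111%) and 331 had an unadjusted p under 0.05 (1.83%). Of 17622 gene bodies 0 passed (0%) and 712 had an unadjusted p under 0.05 (4.04%), and of 17403 flanks 6 passed (0.0345%) and 537 had an unadjusted p under 0.05 (3.09%). None of the genes that passed was among the 9, and the pair at the TSS, named after its values were seen, was *Gm11361* and *Ftl1-ps1*. At the TSS 0 genes passed in limma without any single library (192 to 1550 had an unadjusted p under 0.05), and in the flanks 43 passed without the uninjured M library, 31 without the uninjured F library and 0 without either 1 d.p.i. library. In the gene body 3 passed without the 1 d.p.i. M library, 1 without the 1 d.p.i. F library and 0 without either uninjured library. With sex as a block 284 gene bodies passed in place of 0.

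At the TSS the largest changes by limma among the 9 genes, after *Sox1*, were those of *Sox13* (log2 -0.51, SE 0.67), *Sox12* (-0.38, SE 0.68), *Sox5* (-0.34, SE 0.69) and *Sox2* (0.30, SE 0.67), each within its standard error. Over the gene body *Sox12* (-0.44, SE 0.415), *Sox2* (0.37, SE 0.34) and *Sox21* (0.32, SE 0.21) came next after *Sox1*, and in the flanks *Sox5* (0.31, SE 0.26) and *Sox11* (0.24, SE 0.19) had the largest values. All adjusted p-values of these genes were 0.9997 or above. Of the 26 changes 19 took the other direction in at least 1 alternative, and 7 kept theirs in all that were run: *Sox1* at the TSS, *Sox1*, *Sox21* and *Sox12* over the body, and *Sox11*, *Sox5* and *Sox13* in the flanks.

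Counts of genes whose conditions did not overlap describe the same values without a test. At the TSS *Sox1* was the 1 gene of 8 with both 1 d.p.i. libraries below both uninjured ones, and 0 genes lay above, against 14.8% below and 8.2% above among all coding genes. Over the gene body *Sox1* and *Sox12* lay below and *Sox21* above (16.6% below and 13.2% above among all coding genes). In the flanks *Sox13* lay below, and *Sox11* and *Sox5* above (15.3% below and 11.9% above). *Sox5* did so narrowly, with 0.510 (M) and 0.355 (F) in uninjured cord and 0.518 (M) and 0.812 (F) in injured cord. *Sox1* lay below in both the TSS and the gene body, as 4.70% of the 16966 coding genes tested in both did, and these windows share the first 1 kb of the gene.

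The median direction differed between the M and F libraries over all coding genes tested. As each sex has 1 library in each condition, sex cannot be told apart from animals and depth here. Over 18050 genes the median TSS change was 0.41 for M but -0.54 for F, and 64.6% of these genes had opposite signs in M and F, against 57.5% for gene bodies and 62.3% for flanks. Leaving out a library moved the median limma change of all genes at the TSS from -0.07 to between -0.46 (without uninjured M) and 0.29 (without uninjured F). Relative to the medians of M and F, *Sox1* at the TSS was lower in M (-0.93) and in F (-0.59), and *Sox2* was higher in M (0.39) and in F (0.35). *Sox5* had -1.70 in M and 1.15 in F, the widest gap of the 9 genes at the TSS. At its 5′ end *Sox5* had a limma log2 change of 1.37 in place of -0.34, so that its direction depended on the start taken.

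**Figure D3:**
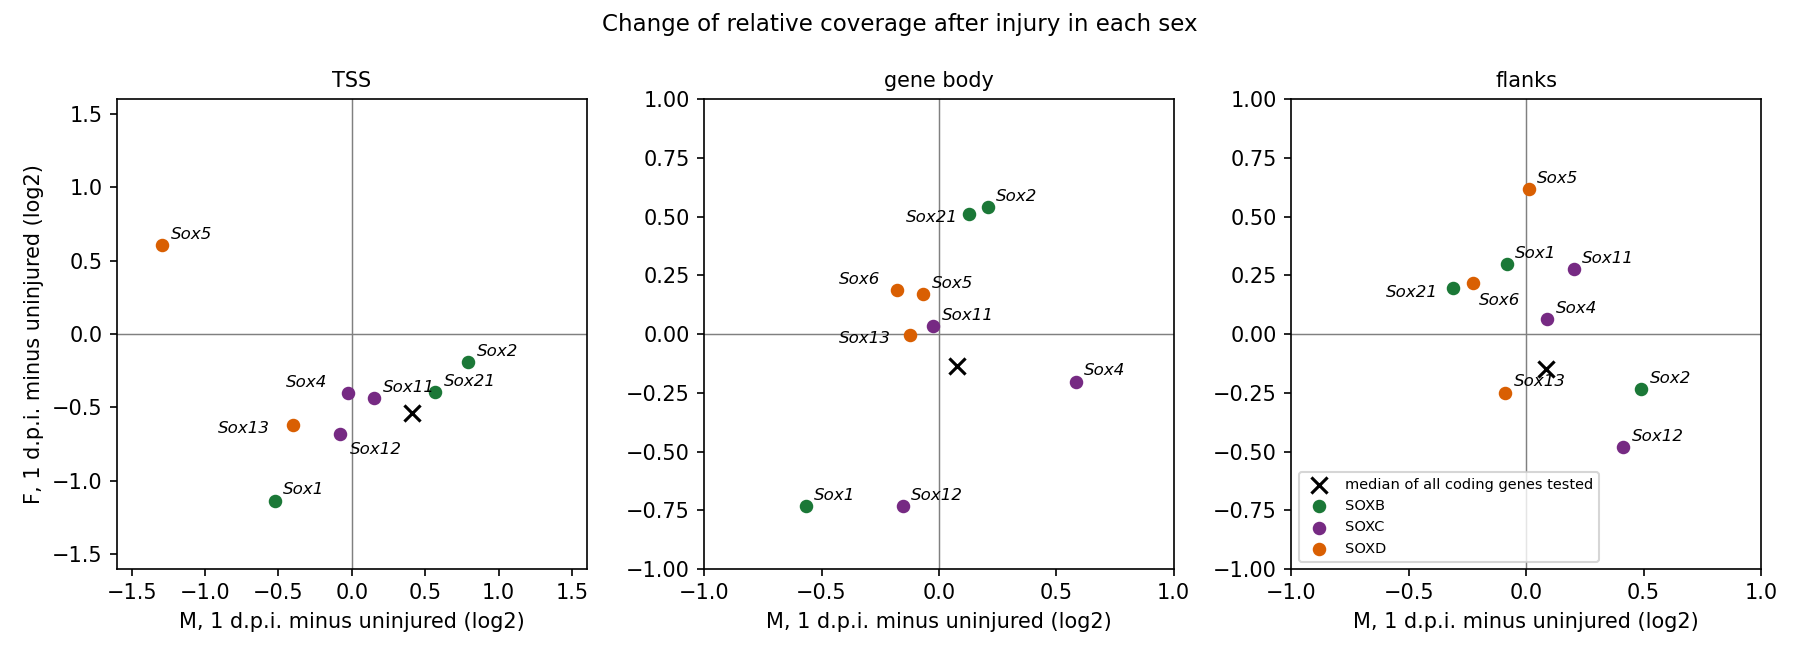
Change in relative coverage (log2, 1 d.p.i. minus uninjured) in M (horizontal axis) and F (vertical axis) for the 9 genes at the TSS (*Sox6*, which failed the filter, left out), over the gene body and in the flanks, with a cross at the median of all coding genes tested. *Sox1* lies in the lower left at the TSS and in the body (changes of -0.57 in M and -0.73 in F in the body), and the genes spread over all 4 quadrants in the body and the flanks, while at the TSS no gene lies in the upper right.

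Among 103 tested tiles of the 9 loci limma called 0, and 2 had an unadjusted p under 0.05. Over the genome 70 of 163300 tiles passed (0.0429%) and 6703 had an unadjusted p under 0.05 (4.1%). The count over the genome was 612 without the uninjured F library, 46 without uninjured M, 85 without 1 d.p.i. M and 7 without 1 d.p.i. F. The first of the 2 lay on an exon of *Sox6* (chr7:116034001-116035000), with 0 (M) and 5.26 (F) in uninjured cord and 7.96 (M) and 9.135 (F) in injured cord, from 0, 15, 7 and 6 fragments (log2 change 2.41, SE 0.77, limma p 0.00183, adjusted p 0.658). It passed without the uninjured F library alone, with a log2 change of 4.175 and an adjusted p of 0.0390, where the single uninjured library left was the one with 0. The second lay on an exon of *Sox13* (chr1:133383001-133384000), with 9.005, 4.40, 0 and 3.76 in the same order of libraries, from 7, 14, 0 and 3 fragments (log2 change -2.225, SE 1.103, limma p 0.0437, adjusted p 0.999). Both rest on a library with no fragment in the tile.

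The controls were sparse at these loci. Together they held 73 fragments in the 9 loci, against 98.5 expected from locus length, a ratio of 0.741 (95% exact Poisson interval 0.581 to 0.932), and the SOX9 libraries had a ratio of 0.927 (0.908 to 0.946). The long loci set these values: *Sox5* and *Sox6* had 0.520 in the controls (0.3745 to 0.702) and 0.621 in the SOX9 libraries (0.604 to 0.638). The other 7 loci had 1.75 in the controls (1.19 to 2.49, from 31 fragments) and 2.325 in the SOX9 libraries (2.26 to 2.40). At *Sox2* the ratio was 4.24 in the controls (1.94 to 8.05, from 9 fragments) and 4.37 in the SOX9 libraries (4.10 to 4.65). Of these 9 fragments 6 came from the 1 d.p.i. M control, without which the ratio was 2.34 (0.483 to 6.84). At *Sox13* it was 2.66 (1.33 to 4.75, from 11 fragments) and 2.60 (2.45 to 2.75). At *Sox12* the controls had 1.78 (0.486 to 4.565, from 4 fragments), below the 4.64 of the SOX9 libraries (4.37 to 4.92) but with overlapping intervals. Of the 73 control fragments 68 (93.2%) had a start and an end that both occur in the same SOX9 library. The same held for 85% of all control fragments. Starts and ends were rebuilt and looked up apart, so that such a match need not be the same fragment. Without the matching fragments 5 were left in the 9 loci, against 14.8 expected from the 19943 left in the genome. The ratio was 0.338 (0.110 to 0.7895), whose interval overlaps that of all control fragments. At *Sox2* 8 of the 9 control fragments and at *Sox13* all 11 had such a match. The 1 left at *Sox2* gave a ratio of 3.14 (0.0795 to 17.5), too few for a statement on that locus. In the SOX9 libraries 3.87 to 7.65% of fragments had such a match in another SOX9 library over the genome, and 1.91 to 5.10% at the 9 loci. Intervals cover counting error only, and whether matching fragments passed between libraries was not tested.

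The tissue was described by lists of cell type marker genes, whose TSS coverage is not their expression. Mean coverage over the 4 SOX9 libraries was highest for oligodendrocyte genes (16.6, with *Mbp* at 37.2), followed by neuron (8.47, *Tubb3* at 18.8), astrocyte (5.22, *Slc1a2* at 14.3), ependymal (4.46, *Foxj1* at 14.05) and OPC genes (4.32). The highest gene carried the ependymal mean, which was 1.265 without *Foxj1* and below those of the microglia and macrophage and endothelial and mural lists. The astrocyte mean was 3.4 without *Slc1a2*, with *Gja1* the lowest at 1.08. The mean was 1.81 for microglia and macrophage genes, 1.67 for endothelial and mural genes and 1.08 for neutrophil genes, among which *S100a9* had 0 in every library. The OPC mean was 2.44 (M) and 3.25 (F) in uninjured cord and 6.76 (M) and 4.81 (F) in injured cord. That list holds 2 genes: both 1 d.p.i. libraries lay above both uninjured ones in *Cspg4*, while the conditions overlapped in *Pdgfra*. The mean of microglia and macrophage genes was 1.55 (M) and 1.78 (F), then 2.075 (M) and 1.84 (F). Of these 7 genes *Cx3cr1*, *Ptprc* and *Itgam* lay above in both 1 d.p.i. libraries, while the conditions overlapped in *Aif1*, *P2ry12*, *Csf1r* and *Tmem119*. In the other lists the conditions overlapped, and no list was tested. The libraries were made from nuclei in bulk, sorted on a DNA dye per the labels, and the methods refer to a sort that also used NEUN or SOX10 staining without stating a gate for CUT&Tag. Fewer nuclei with SOX9 at a gene and less SOX9 signal per nucleus cannot be told apart at *Sox1*, *Sox2* or any other gene named.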

How the data were processed

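SOX9 CUT&Tag and secondary-only control libraries of uninjured and 1 d.p.i. spinal cord, each from 1 M and 1 F sample, were analysed from the values the authors deposited. Per the labels and methods, the authors separated libraries with deML, aligned fragments to mm10 with Bowtie2 2.5.4 and removed duplicates with Picard 3.4.0. The deposited signal was read as coverage, the number of fragments over each stretch of bases, not scaled for depth, and the step that wrote it is not stated. The deposited column of other content holds the index that names the library of each stretch. Peaks called by the authors with SEACR 1.3 were not used here.

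Genes and principal transcripts came from GENCODE M21. Coverage was averaged over the TSS with 1 kb on each side, the gene body, the flanks of 20 kb and tiles of 1 kb, and divided by the mean of the library over chromosomes 1 to 19 and X. A rise in coverage by n was counted as the start of n fragments, after rises and falls at the same position were set against each other. Genes with a mean relative coverage of at least 0.5 and tiles with at least 3 were tested with limma 3.58.1 (R 4.3.3) on log2 of relative coverage plus 0.5, with a mean-variance trend and Benjamini-Hochberg adjustment over all genes or tiles tested. The 4 SOX9 libraries were fitted with condition as the only term. M and F libraries of the 2 conditions come from different animals, so they were not paired, and sex was a block in an alternative. The fit was tested on simulated data, drawn without the differences between M and F libraries that these data show.

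All 9 genes were named by group membership, without *Sox3* and *Sox14* of SOXB. Named with them were the highest tile of each locus, any tile that passed, the other SOX genes and the genes most like 1 member of each group. The tiles at 5 times the library mean, the start sites of further transcripts, the repeat at *Sox5* and the motifs at the 11 tiles were named after their values were seen. Members, windows and marker lists (astrocyte, oligodendrocyte, OPC, ependymal, neuron, microglia and macrophage, neutrophil, endothelial and mural) were chosen with earlier results of these data known. Alternatives covered the libraries in the fit, a block, scaling, pseudocount, filter, trend, windows, tile size, thinned depth and each SOX9 library left out. Scripts used Python 3.11.15, numpy 2.4.6, pandas 2.3.3, scipy 1.17.1, pysam 0.24.0 and matplotlib 3.10.9.

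Limits apply to every value. Each condition has 2 libraries, 1 of each sex, so the spread between libraries holds sex, animals and depth together. The uninjured F library is the deepest, and TSS windows of the 9 genes rest on 7 to 201 fragments over the 4 SOX9 libraries. Signal in the 4 controls was too sparse for a test at single genes. *Sry* was left out because F animals lack the Y chromosome. Coverage at a gene is not its expression, and the cell type behind a fragment is not known.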

Additional observations from a re-analysis of the deposited data

Results flagged for a closer look

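For 13 of 26 changes of the 9 genes the M and F samples moved in opposite directions. These differences between the sexes were not tested, as each sex has 1 library in each condition. Opposite signs were common over the genome too, with 64.6% of coding genes at the TSS, 57.5% over the gene body and 62.3% in the flanks.

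At the TSS the log2 change in M minus that in F was 0.99 for *Sox2*, 0.96 for *Sox21*, 0.59 for *Sox11* and -1.90 for *Sox5*. Over all coding genes the median was 0.41 in M and -0.54 in F, a gap like those of *Sox2* and *Sox21*. Relative to these medians *Sox2* had 0.39 in M and 0.35 in F, *Sox21* 0.16 and 0.15, *Sox11* -0.26 and 0.11, and *Sox5* -1.70 and 1.15. Over the gene body the change in M minus that in F was 0.78 for *Sox4*, -0.057 for *Sox11*, -0.24 for *Sox5* and -0.365 for *Sox6*. In the flanks it was -0.38 for *Sox1*, 0.73 for *Sox2*, -0.51 for *Sox21*, 0.90 for *Sox12* and -0.45 for *Sox6*. Medians over all coding genes were 0.08 in M and -0.14 in F for the body, and 0.09 in M and -0.15 in F for the flanks. None of these differences was tested.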

How the results depend on the processing

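The changes of the 9 genes were recomputed in 372 alternatives. No adjusted p was under 0.05 (the smallest was 0.4085), 331 kept their direction and 41 took the other one, among them 25 that left out 1 library. By construction 111 of the 372 give the same log2 change (all 8 libraries, block, no filter, no trend, and a 5′ end equal to the principal start), so that 220 of the 261 able to change direction kept it. Of the 26 changes 19 took the other direction at least once. The other 7 kept it in every alternative: *Sox1* (TSS), *Sox1*, *Sox21* and *Sox12* (body), and *Sox11*, *Sox5* and *Sox13* (flanks). The cause was not tested for any value below.

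Without 1 library in turn, where the lone library left in a condition is assumed to vary like the other condition, the log2 changes that took the other direction ranged as follows. At the TSS they were *Sox2* -0.0194 to 0.62, *Sox21* -0.39 to 0.57, *Sox4* -0.69 to 0.27, *Sox11* -0.73 to 0.44, *Sox12* -0.77 to 0.0129, *Sox5* -1.02 to 0.33 and *Sox13* -1.03 to 0.0139. Over the body they were *Sox4* -0.14 to 0.52, *Sox11* -0.30 to 0.31, *Sox5* -0.017 to 0.12, *Sox6* -0.21 to 0.22 and *Sox13* -0.23 to 0.10. In the flanks they were *Sox1* -0.022 to 0.24, *Sox2* -0.0826 to 0.34, *Sox21* -0.27 to 0.15, *Sox4* -0.00351 to 0.16, *Sox12* -0.32 to 0.26 and *Sox6* -0.23 to 0.22.

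Other settings gave the other direction in 16 cases. With thinned fragments the log2 change was -0.00767 for *Sox2* and 0.45 for *Sox11* at the TSS, and -0.27 for *Sox2* and -0.13 for *Sox4* over the body. With 2 kb on each side of the TSS it was 0.0479 for *Sox4* and 0.0017 for *Sox11*, and at the 5′ end of *Sox5* it was 1.37. With trimmed-mean scaling it was -0.0474 for *Sox11* and -0.0133 for *Sox6* over the body, where a pseudocount of 2 gave *Sox6* -0.0015. In flanks of 50 kb it was -0.0320 for *Sox2* and 0.0790 for *Sox21*, and in flanks of 10 kb 0.30 for *Sox6*. Relative to the median of all coding genes it was 0.0077 for *Sox12* and 0.0383 for *Sox6* in the flanks, and a pseudocount of 0.1 gave *Sox6* 0.0078.

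With all 8 libraries in the fit limma called 0 genes at the TSS (1223 at an unadjusted p under 0.05), 4 in the body and 0 in the flanks (58 at an unadjusted p under 0.05). Trimmed-mean scaling gave 0 (190 unadjusted), 7 and 0 (218 unadjusted). At the TSS a pseudocount of 2 gave 1 and no filter gave 0 (649 unadjusted), and in the flanks no trend gave 1. Leaving out 1 library gave 0 to 0 at the TSS, 0 to 3 in the body and 0 to 43 in the flanks. Tiles of the 9 loci gave 0 to 1. Over the genome tiles gave 7 to 612, and 0 with all 8 libraries (19964 unadjusted) or without the trend (6755 unadjusted).

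With sex as a replicate block limma called 1 gene at the TSS, 284 in the body and 3 in the flanks, with no member among them. The M and F libraries were not pairs, and the difference between M and F did not repeat between conditions (correlation across genes -0.09, -0.11 and -0.30 for the TSS, body and flanks, where genes are not independent replicates).

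Genes without overlap, beside the share of all coding genes, were 2 below at the TSS with thinned fragments (14.2%). Over the body 0 lay above (7.80%) and 1 below (13.4%) with trimmed-mean scaling, and 2 above (12.9%) with thinned fragments. In the flanks 1 lay above (7.13%) and 0 below (11.8%) with trimmed-mean scaling, 1 above with 50 kb (12.4%), and 2 below with thinned fragments (15.01%) and with 10 kb (16.1%). The 2 genes above in the flanks were *Sox1* and *Sox11* with thinned fragments (11.75%) and *Sox5* and *Sox6* with 10 kb (11.3%). As *Sox11* and *Sox5* lay above in the main setting, the genes changed while the count did not.

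High tiles, beside the share in the loci of all coding genes, numbered 39 of 1953 at a threshold of 3 (1.997% against 3.43%), 4 at 10 (0.205% against 0.403%) and 28 of 3902 with tiles of 0.5 kb (0.718% against 1.25%). Without 1 library they numbered 12 (0.614% against 1.59%) to 24 (1.23% against 2.105%). With 50 bp on each side of the summit 0 loci held a motif. Without fragments whose start and end both occur in a SOX9 library, left out of the expectation too, the control ratio at the 9 loci was 0.338. Without 1 control library, an alternative chosen after seeing the data, it was 0.622 to 0.829, and at *Sox2* 2.34 to 5.805. Depth was lowest for *Sox6* at the TSS (7 fragments), *Sox2* over the body (30) and *Sox5* in the flanks (100).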
